A study of Homo sapiens with 9 samples.

Results

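The human collagen genes were read across 3 lines of the MCF10A breast progression series. Members were all rows of the gene table whose symbol has the form COL, a number, A and a number, which gave 44 genes of 62666. MCF10A is an immortalised mammary epithelial line that forms no tumours. MCF10AT1, a premalignant derivative, carries mutant HRAS, and MCF10Ca1a, from the same lineage, is malignant. Each line was sequenced as polyadenylated RNA in 3 replicate libraries, 9 in all. The medium of all lines held cholera toxin at 100 ng/ml, epidermal growth factor (EGF) at 20 ng/ml, hydrocortisone at 500 ng/ml and insulin at 10 µg/ml. It also held glutamine at 2 mM and sodium bicarbonate at 14 mM. Horse serum was 2.5% for MCF10AT1 and 5% for the other lines, so serum and line cannot be told apart in comparisons with MCF10AT1. Each stage is represented by 1 line, and the labels do not say whether the replicates were separate cultures, so p-values measure the spread between these libraries, which may be technical.

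Collagens are secreted or membrane-bound proteins in which 3 chains, each the product of 1 gene, wind into a triple helix. Fibrillar collagens build the cables of connective tissue, type IV collagens form the sheet of the basement membrane beneath epithelia, and transmembrane collagens sit in the cell surface. Others coat fibrils, form beaded filaments or anchor the basement membrane to the stroma. In the breast, epithelial cells rest on a basement membrane, and most fibrillar collagen comes from stromal fibroblasts. The 44 genes were divided by textbook class into 11 fibrillar, 8 basement membrane, 4 transmembrane and 21 other genes.

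The depth was 62898823 to 69508842 estimated counts a library for MCF10A and MCF10AT1, and 32930503 to 35243012 for MCF10Ca1a. No 2 replicates were identical, and replicate pairs differed by a chi-square per degree of freedom of 2.42 to 68.3. MCF10A replicate 1 stood apart from replicates 2 and 3: 18 of the 25 collagen genes tested were higher there than in both others, against 45.6% of all genes tested, with a median ratio to their mean of 1.27 against 1.02. All 8 mammary epithelial markers (KRT5, KRT14, KRT8, KRT18, CDH1, EPCAM, TP63, LAMB3) were detected in every line, at summed levels of 2023 to 3247 TPM, the deposited level corrected for transcript length and library size. Within that sum the line means of MCF10A, MCF10AT1 and MCF10Ca1a were 205, 38.8 and 4.78 TPM for the basal keratin KRT14 and 1423, 1632 and 419.6 TPM for KRT5, another basal keratin. They were 40.1, 169.7 and 389.8 TPM for EPCAM, 41.5, 37.2 and 231 TPM for CDH1, and 283, 193 and 884 TPM for LAMB3. TP63, a basal transcription factor, was at 26.0, 16.2 and 31.1 TPM, and the luminal keratins KRT8 and KRT18 were at 110.5, 448.6 and 441.5 TPM and at 257, 554 and 693 TPM. Of 8 fibroblast markers, 5 were detected in MCF10A, 6 in MCF10AT1 and 3 in MCF10Ca1a. Their summed level was 129 to 161 TPM in MCF10A, 73.1 to 86.8 TPM in MCF10AT1 and 120 to 127 TPM in MCF10Ca1a, mostly from FBLN1 and FAP, and in MCF10AT1 also from DCN. THY1 was at 0 in all MCF10A and MCF10Ca1a libraries, LUM was at 0 in all MCF10Ca1a libraries, and PDGFRA and PDGFRB had line means of at most 0.0577 TPM. Of 5 endothelial markers, CDH5 was at 0 in MCF10A and MCF10Ca1a, and the sum in MCF10Ca1a of 15.7 to 20.8 TPM came almost wholly from PECAM1. Of 5 leukocyte markers, CD3E was at 0 in all 9 libraries and CD14 alone was detected in each line, and their sum was 7.60 to 9.41 TPM in MCF10A, 3.39 to 3.98 in MCF10AT1 and 0.269 to 0.367 in MCF10Ca1a. The part of these markers in the collagen results was not tested.

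Not all of the family was detected in these epithelial cells. With detection set at more than 3 counts in each of a line's libraries, 23 members were detected in MCF10A, 25 in MCF10AT1 and 22 in MCF10Ca1a, and 18 in all 3 lines. After every library was thinned to the depth of the smallest, the number was 22 in each line. A filter on low counts kept 25 members for testing, of 17910 genes tested in all. Of these, 17 reached a mean of 1 TPM in some line and are given library by library, and 8 stayed below it. The other 19 did not pass and had at most 11 counts in any library. They were COL1A2, COL3A1, COL5A1, COL11A1 and COL24A1 among fibrillar genes, COL4A3 and COL15A1 among basement membrane genes, COL23A1 and COL25A1 among transmembrane genes, and COL6A2, COL6A5, COL6A6, COL9A1, COL10A1, COL14A1, COL19A1, COL20A1, COL21A1 and COL26A1 among the rest. COL6A6 had 0 counts in all 9 libraries, which allows up to 3 counts in each, for counting error only.

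Both the size and the make-up of the collagen transcript pool differed between the lines. Summed over all members, collagen RNA was 340.4 ± 69.99 TPM (SD, n = 3) in MCF10A, 252 ± 2.84 in MCF10AT1 and 431 ± 4.09 in MCF10Ca1a. MCF10Ca1a minus MCF10A was 0.36 on the log2 scale, and 0.52, 0.33 and 0.23 without MCF10A replicate 1, 2 or 3. Without a 794-base COL12A1 transcript model, MCF10A replicate 1, at 412.5 TPM, lay above the 382 to 389 TPM of MCF10Ca1a. The transmembrane class held 48.3% ± 0.474 of that sum (SD, n = 3) in MCF10A, 46.8% ± 0.675 in MCF10AT1 and 19.9% ± 0.427 in MCF10Ca1a. The mixed class of fibril-associated, beaded-filament, network and anchoring collagens went the other way, holding 14.1% ± 0.501, 23.1% ± 0.501 and 51.2% ± 0.401. In MCF10Ca1a COL12A1 held 31.9% and COL16A1 13.1%, so the mixed class there was mainly these genes. From MCF10A to MCF10Ca1a COL8A1 went from 14.1 to 18.9 TPM, while COL7A1 fell from 10.6 to 2.47 and COL6A1 from 1.16 to 0.0462. The transmembrane class was mostly COL17A1, whereas COL13A1 went up from 0.663 to 9.81 TPM. In these bulk samples, fewer cells with a transcript and less of it per cell cannot be told apart.

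**Figure D1:**
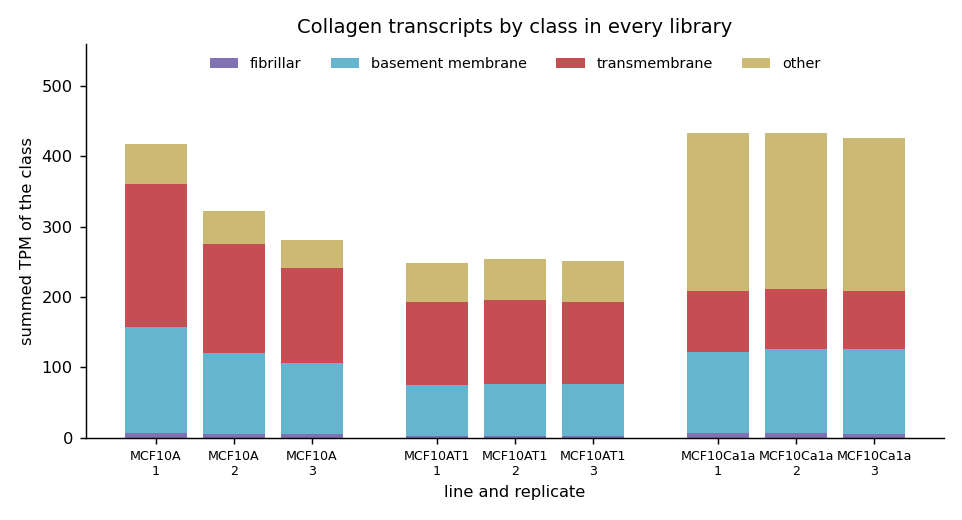
Stacked bars give the summed TPM of the 4 collagen classes in each of the 9 libraries, by line and replicate. The bars of MCF10Ca1a are mostly the mixed class at 217 to 224 TPM, those of the other lines mostly transmembrane and basement membrane collagen, and the fibrillar class is a thin strip of at most 6.71 TPM.

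As levels, the transmembrane class stood at 204, 155 and 135 TPM in the MCF10A libraries and 118, 119.6 and 116 in MCF10AT1, against 88.0, 85.8 and 83.0 in MCF10Ca1a. The 3 lines did not overlap. The mixed class stood at 56.4, 46.5 and 40.1 TPM, then 56.0, 58.9 and 59.1, then 224, 221 and 217, so that MCF10Ca1a lay apart. MCF10A and MCF10AT1 overlapped by MCF10A replicate 1 alone, and not once the 794-base COL12A1 model was left out, at 40.1 to 51.1 and 53.2 to 59.1 TPM. Basement membrane collagens stood at 151, 115 and 102 TPM in MCF10A and 72.4, 73.8 and 74.2 in MCF10AT1, against 115, 119.8 and 120.3 in MCF10Ca1a. MCF10AT1 was below both other lines, whose ranges overlapped. Fibrillar collagens were low throughout, at 6.71, 5.69 and 5.00 TPM, then 2.44, 2.29 and 2.28, then 6.10, 6.02 and 5.83, again lowest in MCF10AT1. An exact permutation test over the 3 lines (1680 arrangements, Benjamini-Hochberg over 5 sums) gave adjusted p of 0.00893 for all collagens and for the transmembrane class, 0.0119 for the mixed class, 0.0312 for the fibrillar and 0.0357 for the basement membrane class. The smallest unadjusted p this test can give is 0.00357, and it says that the lines differ, not which. With 2 lines of 3 libraries no two-sided permutation test can pass 0.05. Without MCF10A replicate 1, the MCF10Ca1a to MCF10A difference of basement membrane collagens turned from -0.03 to 0.13 on the log2 scale. That of fibrillar collagens turned from 0.05 to -0.05 without MCF10A replicate 3.

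The leading gene changed with the class. COL17A1 was first in MCF10A with 48.2% of collagen TPM and in MCF10AT1 with 45.6%, whereas in MCF10Ca1a COL12A1 held 31.9% and COL17A1 17.6%. In MCF10A the next were COL4A5, COL4A2, COL4A6 and COL4A1 at 42.9, 38.1, 21.2 and 19.6 TPM, all type IV chains. Ranges of COL4A5 and COL4A2 overlapped there, as did those of COL4A6 and COL4A1. In MCF10AT1 COL17A1 at 115 TPM was followed by COL4A2 at 27.8 TPM, COL12A1 and COL8A1 at 21.6 and 21.5 TPM, and COL4A5 at 20.1 TPM, and these last 3 overlapped. In MCF10Ca1a the order was COL12A1 at 137, COL17A1 at 75.8, COL4A2 at 66.2 and COL16A1 at 56.4 TPM, with no overlap between any of these 4. COL4A1 and COL4A5 followed at 24.9 and 23.1 TPM, with overlapping ranges. The second place of COL17A1 in MCF10Ca1a included a 537-base model at 20.95 ± 1.85 TPM (SD, n = 3). The full-length COL17A1 model there stood at 39.3 ± 1.14 TPM, below the full-length COL4A2 model at 48.95 ± 0.424.

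**Figure D2:**
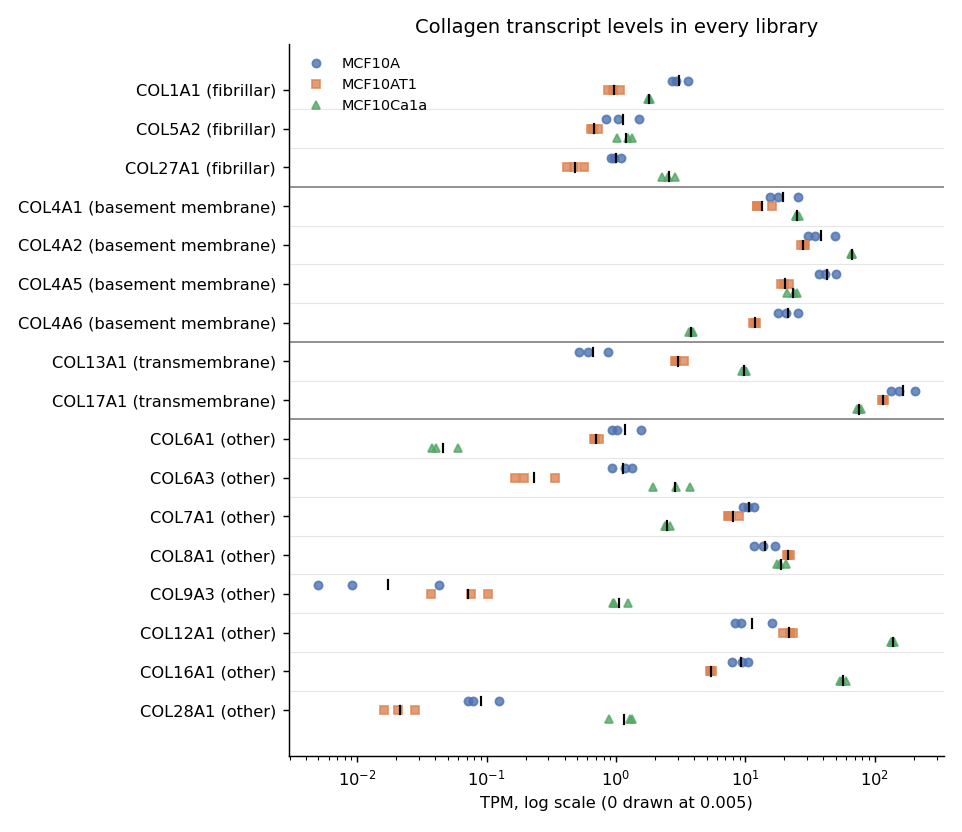
Points give the TPM of the 17 collagen genes at 1 TPM or more in some line, per library and on a log axis, with black ticks at the mean of each line and 0 drawn at the left edge. COL17A1 lies to the right in MCF10A and MCF10AT1, and COL12A1, COL16A1, COL13A1, COL9A3 and COL28A1 lie furthest right in MCF10Ca1a.

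Changes of single genes were tested with edgeR's quasi-likelihood test on normalised counts, with Benjamini-Hochberg adjustment over all 17910 genes and a threshold of 0.05. The 3 comparisons share libraries and are not independent. In MCF10AT1 against MCF10A, the premalignant step, 22 of the 25 members tested passed, 7 higher and 15 lower, against 61.6% of all genes tested, 29.8% higher and 31.8% lower. Their median log2 change was -0.45, against -0.00383 for all genes, and 13 of 25 changed at least 2-fold against 18% of all genes. In MCF10Ca1a against MCF10AT1, 20 of 25 passed, 11 higher and 9 lower, against 78.3% of all genes (37.9% higher, 40.3% lower), a share near the background, with 16 at least 2-fold against 37.6%. In MCF10Ca1a against MCF10A, 20 of 25 passed, 10 in each direction, against 80.9% (38.9% higher, 41.9% lower), again near the background, with 15 at least 2-fold against 42.8%. The median size of a member's log2 change was 1.05, 1.62 and 1.56 in the 3 comparisons, and 0.378, 0.760 and 0.839 over all genes. Without MCF10A replicate 1, the members called numbered 23, 22 and 22. A member that passed the filter through 1 high line had to differ, so these counts describe the members and support nothing about them.

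**Figure D3:**
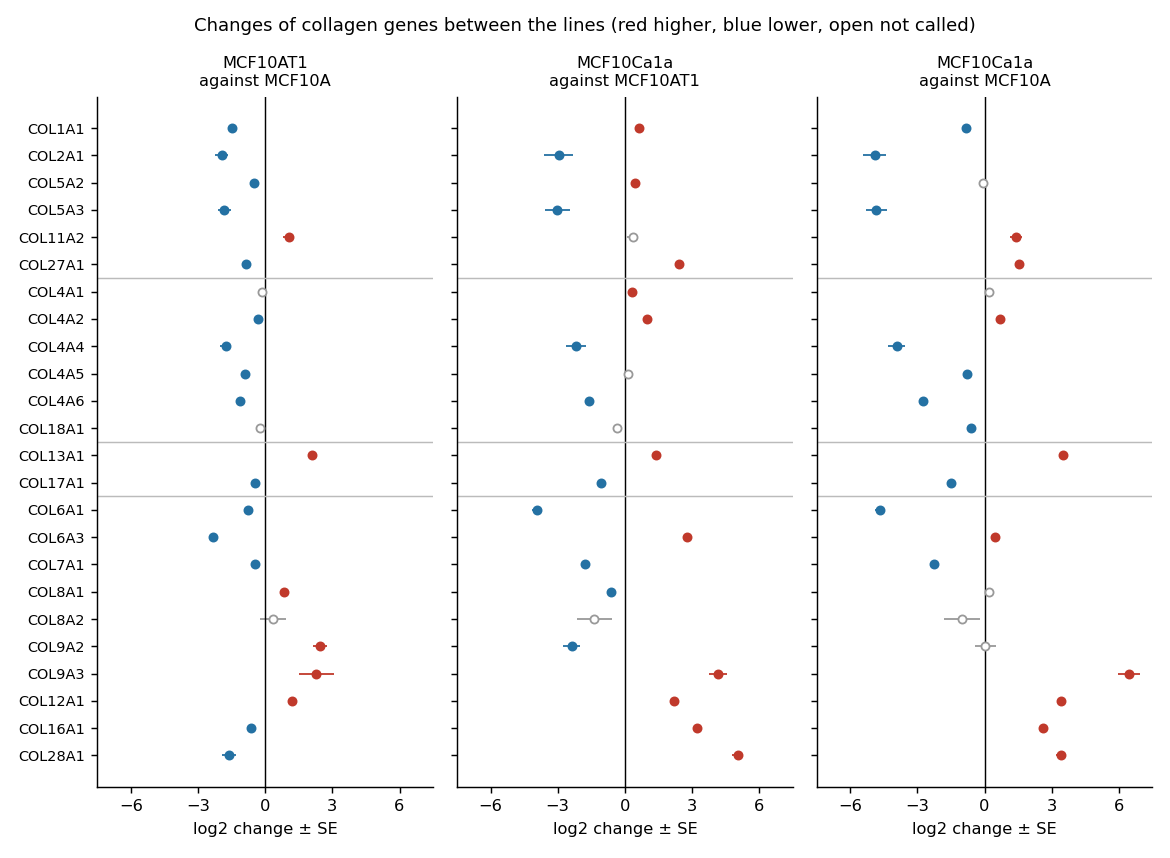
Log2 changes of 24 collagen genes with standard errors in the 3 comparisons, from edgeR on normalised counts, with red points higher, blue points lower and open points not called. COL22A1, at 0 counts in MCF10A, is left out, and grey lines part the fibrillar, basement membrane, transmembrane and other genes. COL12A1, COL13A1 and COL9A3 are to the right in all 3 panels, and COL17A1, COL7A1, COL4A6 and COL6A1 to the left.

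Basement membrane collagens were split by chain. The type IV network is built from 6 chains, encoded by head-to-head gene pairs that each share a promoter region: COL4A1 with COL4A2, found in nearly all basement membranes, COL4A3 with COL4A4, and COL4A5 with COL4A6, found in epithelial ones. Of the 6 members of the class that were tested, 4 fell and 0 rose at the premalignant step, 2 rose and 2 fell at the malignant step, and 1 rose and 4 fell in MCF10Ca1a against MCF10A, where 61.6%, 78.3% and 80.9% of all genes were called. The windows of the COL4A1 and COL4A5 starts and of both COL4A6 starts are shown because the results below turn on these pairs and on the start used. Each runs from 250 bases before to 50 after the RefSeq start, in GRCh38.p14 and 5′ to 3′ on the gene's own strand, and capitals mark GC boxes (GGGCGG) and CCAAT boxes (CCAAT) on either strand. No match of one motif overlapped a match of the other in them.
COL4A1 (chr13:110307108-110307407, minus strand): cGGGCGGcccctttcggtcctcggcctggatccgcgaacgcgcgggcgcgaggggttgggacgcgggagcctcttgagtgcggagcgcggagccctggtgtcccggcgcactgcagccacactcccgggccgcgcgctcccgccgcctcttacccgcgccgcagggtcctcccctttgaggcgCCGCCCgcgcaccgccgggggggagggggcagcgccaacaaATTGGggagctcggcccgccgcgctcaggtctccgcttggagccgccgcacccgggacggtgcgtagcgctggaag
COL4A5 (chrX:108439588-108439887, plus strand): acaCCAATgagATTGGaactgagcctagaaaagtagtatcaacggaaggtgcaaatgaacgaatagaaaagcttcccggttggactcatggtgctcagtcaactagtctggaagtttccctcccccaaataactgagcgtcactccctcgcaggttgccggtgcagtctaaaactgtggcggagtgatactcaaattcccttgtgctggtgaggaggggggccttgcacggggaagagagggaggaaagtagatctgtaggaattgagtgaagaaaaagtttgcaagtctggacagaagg
COL4A6 upstream start (chrX:108439409-108439708, minus strand): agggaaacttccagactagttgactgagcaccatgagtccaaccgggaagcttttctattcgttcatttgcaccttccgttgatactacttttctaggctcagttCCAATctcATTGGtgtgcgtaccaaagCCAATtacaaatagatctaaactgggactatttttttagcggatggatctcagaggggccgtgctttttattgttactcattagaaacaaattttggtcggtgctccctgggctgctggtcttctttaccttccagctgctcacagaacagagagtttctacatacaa
COL4A6 downstream start (chrX:108438373-108438672, minus strand): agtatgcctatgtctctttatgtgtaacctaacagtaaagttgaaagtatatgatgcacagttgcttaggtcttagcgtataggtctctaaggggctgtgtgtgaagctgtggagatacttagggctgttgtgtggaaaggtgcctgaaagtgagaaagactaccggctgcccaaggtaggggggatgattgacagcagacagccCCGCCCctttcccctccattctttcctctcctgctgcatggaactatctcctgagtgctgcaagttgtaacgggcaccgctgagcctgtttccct
The starts of COL4A1 and COL4A2 lie 127 bases apart on opposite strands, and their windows share 226 bases. Those of COL4A5 and the upstream COL4A6 start lie 380 bases apart and share 121 bases, which hold both CCAAT boxes of the COL4A5 window. The downstream COL4A6 start lies 1036 bases further into that gene. GC content was 76.7% in the COL4A1 window and 49.3%, 43.7% and 50% in the other windows, against a median of 58.7% over all 35116 RefSeq windows. A GC box was present in 45% of all windows and in 24 of 44 collagen windows (32 genes matched), and a CCAAT box in 34.6% of all and 14 of 44. A match of letters is a description and not a binding site.

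COL4A1 and COL4A2, the chains of the common network, were both among the 6 highest members in every line, and COL4A2 was highest in MCF10Ca1a. COL4A2 (ENSG00000134871.19, chromosome 13:110305812-110513209, plus strand, in GENCODE 29 on GRCh38, which gives all gene positions here) had 49.3, 34.4 and 30.5 TPM in MCF10A and 28.2, 26.7 and 28.6 in MCF10AT1, against 65.7, 66.4 and 66.5 in MCF10Ca1a. MCF10Ca1a lay above all other libraries. Its log2 change in normalised counts was 1.01 against MCF10AT1 (SE 0.123, edgeR adjusted p 1.49e-05) and 0.69 against MCF10A (SE 0.122, adjusted p 0.000302). At the premalignant step it was -0.33 (SE 0.122, edgeR adjusted p 0.0381) with overlapping normalised counts. That call was lost in 9 of 20 alternatives, with adjusted p up to 0.0995, among them the DESeq2 test and the fits without any 1 MCF10AT1 library or without MCF10Ca1a replicate 1 or 2, and the change was -0.13 without MCF10A replicate 1. COL4A1 (chromosome 13:110148963-110307233, minus strand) had 25.3, 18.0 and 15.6 TPM in MCF10A and 12.2, 15.98 and 12.3 in MCF10AT1, against 24.5, 25.8 and 24.5 in MCF10Ca1a. MCF10AT1 was lowest apart from replicate 2, which overlapped MCF10A. In normalised counts it rose by 0.32 in MCF10Ca1a against MCF10AT1 (SE 0.111, edgeR adjusted p 0.0208). That call was lost in 3 of the 9 fits that left out a library: MCF10AT1 replicate 1, MCF10AT1 replicate 2 or MCF10Ca1a replicate 2. COL4A1 did not overlap between MCF10AT1 and MCF10Ca1a in normalised counts, where its SD was 3.22 and 0.790, against 17.9 in MCF10A. Over all alternatives its adjusted p for this rise ran from 2.97e-07 to 0.0711. Its changes of -0.14 and 0.18 in MCF10AT1 and MCF10Ca1a against MCF10A did not pass (edgeR adjusted p 0.299 and 0.154). Without MCF10A replicate 1 the latter was called higher, at 0.34. The premalignant change was called lower in 4 alternatives that correct for transcript length or use scaled counts and without MCF10A replicate 3. Adjusted p ran from 0.0178 to 0.604 over all alternatives. A short 2412-base COL4A1 model took 25.3%, 4.84% and 21.7% of the gene's TPM in the 3 lines. In MCF10AT1 it was at 0, 2.32 and 0 TPM, and the ratio of COL4A1 to COL4A2 in these libraries was 0.435, 0.599 and 0.429. COL4A1 to COL4A2 in TPM was 0.516 ± 0.00620 (SD, n = 3) in MCF10A, 0.488 ± 0.0963 in MCF10AT1 and 0.377 ± 0.0105 in MCF10Ca1a. The lines differed by the exact permutation test (adjusted p 0.0286 over 3 ratios), and adjusted p was 0.0714 to 0.129 when any 1 MCF10A or MCF10Ca1a library was left out. Without type IV models under 3000 bases the ratio was 0.385 ± 0.0433, 0.459 ± 0.0461 and 0.295 ± 0.0349 (exact permutation adjusted p 0.0107).

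COL4A5 and COL4A6, whose products join in 1 epithelial network, both fell at the premalignant step and then parted. COL4A5 (ENSG00000188153.14, chromosome X:108439844-108697545, plus strand) had 50.1, 41.6 and 37.2 TPM in MCF10A and 19.8, 18.7 and 21.6 in MCF10AT1, against 20.95, 23.5 and 24.9 in MCF10Ca1a. MCF10A was highest without overlap. In normalised counts its log2 change was -0.92 in MCF10AT1 against MCF10A (SE 0.0777, edgeR adjusted p 5.43e-08) and 0.14 in MCF10Ca1a against MCF10AT1 (SE 0.0789, adjusted p 0.116). That last change turned to -0.09 and -0.08 with length-scaled and scaled counts and was called higher in 5 alternatives, of which 1 left out MCF10A replicate 1. COL4A6 (ENSG00000197565.17, chromosome X:108155607-108439497, minus strand) had 25.3, 20.5 and 17.8 TPM in MCF10A and 11.9, 12.1 and 11.4 in MCF10AT1, against 3.67, 3.86 and 3.94 in MCF10Ca1a. The lines fell one below the other with no overlap. Its log2 change was -1.11 at the premalignant step (SE 0.0936, edgeR adjusted p 2.28e-07) and -1.62 at the malignant step (SE 0.105, adjusted p 5.3e-09). COL4A5 to COL4A6 in TPM was 2.03 ± 0.0570 (SD, n = 3), 1.71 ± 0.179 and 6.04 ± 0.312, with an exact permutation adjusted p of 0.00536. An 859-base COL4A5 model held 37.8%, 37.2% and 28.7% of that gene. Without the type IV models under 3000 bases, a choice made after seeing the data, COL4A5 was 26.7 ± 3.93 TPM in MCF10A, below COL4A2, and the ratio was 1.60 ± 0.136, 1.59 ± 0.200 and 5.62 ± 0.719 (exact permutation adjusted p 0.0357).

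The fall of COL4A6 was unequal between its starts. Starts were grouped after the values had been seen, so no test is given, and reads shared by transcripts were divided by the authors' quantification. The 3 transcript models from the upstream start, next to COL4A5, stood at 8.13, 7.58 and 4.57 TPM in MCF10A and 6.09, 5.46 and 6.26 in MCF10AT1, against 3.57, 3.64 and 3.55 in MCF10Ca1a. The 5 models from the downstream start stood at 16.9, 12.45 and 12.8 TPM, then 5.55, 6.42 and 4.73, then 0.0504, 0 and 0.157. Downstream models thus held 66.5% ± 5.59 of COL4A6 TPM (SD, n = 3) in MCF10A, 47.2% ± 5.78 in MCF10AT1 and 1.78% ± 2.02 in MCF10Ca1a. Estimated counts behind the downstream models were 3931 to 5448 a library in MCF10A and 11, 0 and 32 in MCF10Ca1a. The full-length downstream model alone had 4268, 2961 and 3695 counts in MCF10A and 0 in every MCF10Ca1a library.

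**Figure D4:**
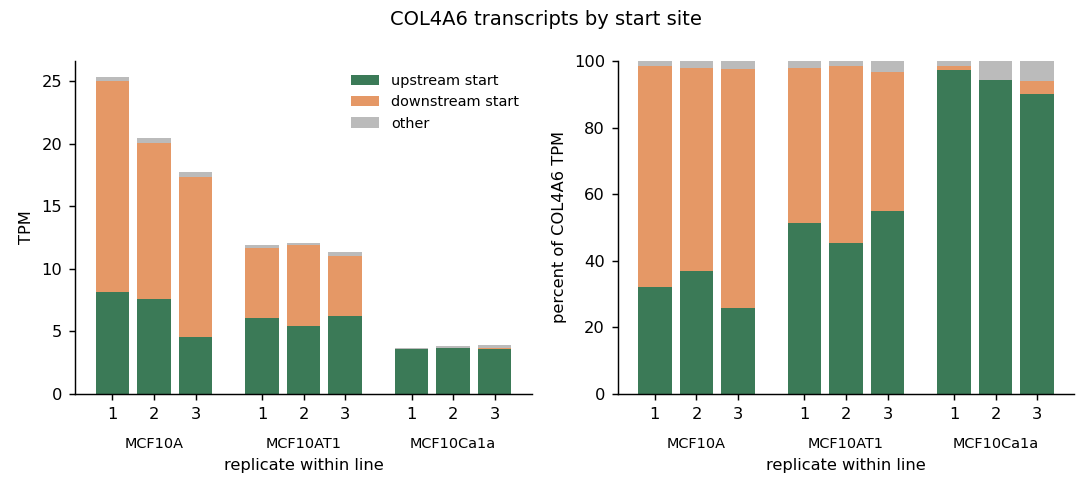
Stacked bars give COL4A6 in each library by the start of its transcript models, in TPM on the left and as a percentage of the gene on the right. The downstream start, 66.5% of the gene in MCF10A on average, is nearly missing in MCF10Ca1a, while the upstream start is present in all 9 libraries.

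Among the other members of the class, COL4A4, the partner of COL4A3 in the network of kidney, lung and other specialised membranes, was below 1 TPM and fell at both steps, with 80, 58 and 71 counts in MCF10A and 21, 16 and 23 in MCF10AT1, against 1, 4 and 2 in MCF10Ca1a. The malignant fall of COL4A4 was not called by limma on the log2 TPM scales (adjusted p up to 0.407). COL18A1, whose cleaved end is endostatin, was at most 0.482 TPM in any library. Its log2 change of -0.59 in MCF10Ca1a against MCF10A (SE 0.195, edgeR adjusted p 0.0107) was not called in 6 of 20 alternatives, of which 1 left out MCF10Ca1a replicate 2, with adjusted p up to 0.21.

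The 2 transmembrane members moved in opposite directions. COL17A1, also called BP180, spans the basal membrane of epithelial cells at hemidesmosomes and ties them to the basement membrane. COL17A1 (ENSG00000065618.21, chromosome 10:104031286-104085957, minus strand) had 203, 154 and 134 TPM in MCF10A and 115, 117 and 113 in MCF10AT1, against 78.6, 75.6 and 73.0 in MCF10Ca1a. The lines stepped down without overlap, and MCF10A was the most variable, with replicate 1 at 1.32 times the mean of replicates 2 and 3 in normalised counts. Its log2 change was -0.45 in MCF10AT1 against MCF10A (SE 0.0917, edgeR adjusted p 0.000596), -1.05 in MCF10Ca1a against MCF10AT1 (SE 0.0931, adjusted p 4.98e-08) and -1.50 in MCF10Ca1a against MCF10A (SE 0.0940, adjusted p 6.56e-10). The full-length COL17A1 model fell from 106 ± 26.2 to 68.7 ± 1.26 and 39.3 ± 1.14 TPM (SD, n = 3), and a 537-base model of its last exons held 16.1%, 21.0% and 27.6% of the gene.

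COL13A1, a collagen of cell contact sites, rose from under 1 TPM. It had 0.867, 0.608 and 0.514 TPM in MCF10A and 3.33, 2.89 and 2.85 in MCF10AT1, against 9.38, 10.1 and 9.95 in MCF10Ca1a, with no overlap of lines. Its log2 change in normalised counts was 2.11 at the premalignant step (SE 0.137, edgeR adjusted p 3.14e-09) and 1.39 at the malignant step (SE 0.116, adjusted p 2.39e-08), or 11.3-fold in all. A 3027-base COL13A1 model rose from 0.284 ± 0.0972 to 0.683 ± 0.0549 and 1.82 ± 0.370 TPM (SD, n = 3). A model of unmatched length, at 0 in every MCF10A library, held 26.7% of the gene in MCF10AT1 and 40.4% in MCF10Ca1a. At its highest, COL13A1 was still below COL17A1, at 9.81 against 75.8 TPM.

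Fibrillar collagens were scarce, and for types I and V 1 chain of the usual pair was nearly missing. Type I collagen is normally built from COL1A1 and COL1A2. COL1A1 (chromosome 17:50183289-50201632, minus strand) had 642, 536 and 642 counts in MCF10A and 203, 212 and 228 in MCF10AT1, against 172, 169 and 195 in MCF10Ca1a, whereas COL1A2 had 0 counts in 8 of 9 libraries and 1 in the other. COL5A2 had 159 to 371 counts a library, and COL5A1, its usual partner in type V, at most 3. The ratios of these pairs are not given for that reason. COL3A1, the other main interstitial collagen, had at most 2 counts.

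COL1A1 was lowest in MCF10AT1, at 1.07, 0.946 and 0.867 TPM against 3.59, 2.89 and 2.71 in MCF10A and 1.75, 1.81 and 1.81 in MCF10Ca1a. No lines overlapped. It fell by 1.47 on the log2 scale at the premalignant step (SE 0.102, edgeR adjusted p 3.94e-09) and rose by 0.63 at the malignant step (SE 0.110, adjusted p 7.28e-05). COL5A2 was also lowest in MCF10AT1, at 1.51, 1.03 and 0.833 TPM, then 0.642, 0.720 and 0.663, then 1.01, 1.33 and 1.24. It changed by -0.52 (SE 0.107, edgeR adjusted p 0.000579) and 0.46 (SE 0.112, adjusted p 0.00145) in normalised counts, and MCF10A and MCF10Ca1a overlapped. Its premalignant fall was not called by limma on log2(TPM + 1) without a filter (adjusted p 0.0764). COL27A1, a fibrillar collagen first known from cartilage, had 0.913, 0.970 and 1.09 TPM in MCF10A and 0.472, 0.414 and 0.565 in MCF10AT1, against 2.87, 2.54 and 2.28 in MCF10Ca1a. It was highest in MCF10Ca1a, by 2.43 against MCF10AT1 (SE 0.108, edgeR adjusted p 6.05e-12) and 1.56 against MCF10A (SE 0.102, adjusted p 5.48e-10) on the log2 scale. The summed fibroblast markers given above were also lowest in MCF10AT1, and their part in these values was not tested.

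The remaining fibrillar genes tested stayed below 1 TPM. COL2A1, the main cartilage collagen, had 39, 46 and 41 counts in MCF10A and 13, 8 and 11 in MCF10AT1, against 1, 0 and 1 in MCF10Ca1a, a count ratio of MCF10A to MCF10Ca1a of 33.3 (95% interval 9.02 to 278, exact, counting error only). COL5A3, the third type V chain, fell alike from 59 to 88 counts to 13 to 32 and then 1 or 2. The malignant falls of COL2A1 and COL5A3 were not called by limma on the log2 TPM scales (adjusted p up to 0.582 and 0.322). COL11A2, a type XI chain, went up, with line means of 0.278, 0.576 and 0.737 CPM, counts scaled to library size. Its premalignant log2 change of 1.05 passed (SE 0.254, edgeR adjusted p 0.00207) and the next, 0.35 (SE 0.244, adjusted p 0.195), did not. On the log2(TPM + 1) scale the first was not called (limma adjusted p 0.124, and 0.244 without a filter). The second was called higher with length-scaled counts, at 1.04, and in the 3 limma fits, with adjusted p from 0.000888 to 0.536 over all alternatives.

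Type VI collagen, a beaded filament of 3 chains, was expressed in part. COL6A2 had at most 11 counts in a library. COL6A1 had 1.55, 1.01 and 0.932 TPM in MCF10A and 0.677, 0.743 and 0.682 in MCF10AT1, against 0.0601, 0.0408 and 0.0376 in MCF10Ca1a. It stepped down without overlap, to 5 to 8 counts a library in MCF10Ca1a. The malignant step was -3.92 on the log2 scale (SE 0.222, edgeR adjusted p 1.13e-10), and the premalignant step -0.76 (SE 0.127, adjusted p 7.54e-05), which scaled counts did not call (adjusted p 0.0501). COL6A3, the largest chain, dipped and recovered, at 1.32, 1.18 and 0.927 TPM, then 0.335, 0.165 and 0.195, then 2.89, 1.93 and 3.70. It fell by 2.33 at the premalignant step (SE 0.116, edgeR adjusted p 7.18e-11) and rose by 2.79 at the malignant step (SE 0.118, adjusted p 3.2e-12) in normalised counts. COL6A3 to COL6A1 in TPM was 1.004 ± 0.153 (SD, n = 3), 0.334 ± 0.143 and 64.6 ± 29.2, with an exact permutation adjusted p of 0.00536. In MCF10Ca1a the ratio rests on 5 to 8 COL6A1 counts, and 1 COL6A3 model of unmatched length, at 0 in replicate 2, held 34.6% ± 32.1 of that gene.

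COL7A1, which forms the anchoring fibrils that fix the epithelial basement membrane to the stroma, also fell. It had 9.60, 11.7 and 10.4 TPM in MCF10A and 7.52, 7.38 and 8.95 in MCF10AT1, against 2.61, 2.42 and 2.39 in MCF10Ca1a. The lines did not overlap, and MCF10Ca1a stood furthest down. Its log2 change in normalised counts was -0.45 (SE 0.0756, edgeR adjusted p 9.62e-05) at the premalignant step and -1.80 (SE 0.0860, adjusted p 1.77e-11) at the malignant step. The premalignant call was lost with scaled counts, where adjusted p was 0.0614.

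Fibril-associated collagens, which bind to the surface of fibrils and do not form them, ranged in MCF10Ca1a from COL12A1, the highest of all members, and COL16A1, the fourth, to genes near 0. COL12A1 (ENSG00000111799.22, chromosome 6:75084326-75206051, minus strand), which links fibrils to surrounding matrix, had 16.1, 9.28 and 8.26 TPM in MCF10A and 19.4, 23.2 and 22.3 in MCF10AT1, against 141, 134 and 137 in MCF10Ca1a. The lines stepped up without overlap. In normalised counts it rose by 1.21 at the premalignant step (SE 0.0842, edgeR adjusted p 4.12e-09) and by 2.20 at the malignant step (SE 0.0856, adjusted p 1.28e-12), 10.6-fold in all. Of the 137 TPM in MCF10Ca1a, 44.6 ± 1.35 (SD, n = 3) came from a 794-base internal model that was at 0 in 4 of the other 6 libraries and at 5.32 and 5.71 TPM in MCF10A replicate 1 and MCF10AT1 replicate 2. Without that model COL12A1 was 9.44 ± 1.27, 19.7 ± 2.38 and 92.7 ± 2.30 TPM, still first in MCF10Ca1a, and the mixed class was 45.9, 56.1 and 176 TPM. The full-length COL12A1 model rose from 6.09 ± 1.31 to 12.96 ± 0.744 and 73.2 ± 3.32 TPM, against 39.3 TPM for full-length COL17A1 in MCF10Ca1a.

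COL16A1 (ENSG00000084636.18, chromosome 1:31652247-31704319, minus strand), found near basement membranes and on fibrils, fell before it rose. It had 10.5, 9.37 and 7.87 TPM in MCF10A and 5.53, 5.33 and 5.42 in MCF10AT1, against 55.8, 59.5 and 53.8 in MCF10Ca1a. No lines overlapped. Its log2 change was -0.63 (SE 0.0645, edgeR adjusted p 4.52e-07) at the premalignant step and 3.24 (SE 0.0666, adjusted p 1.26e-15) at the malignant step in normalised counts. The full-length model followed the gene, at 3.66 ± 0.726, 2.02 ± 0.132 and 27.8 ± 0.334 TPM (SD, n = 3).

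COL9A3, a type IX chain known from cartilage, was near nothing outside MCF10Ca1a. It had 1, 2 and 0 counts in MCF10A and 2, 4 and 10 in MCF10AT1, against 55, 50 and 54 in MCF10Ca1a, where its mean was 1.05 TPM. The count ratio of MCF10Ca1a to MCF10A was 100 (95% interval 33.7 to 492, exact, counting error only). Its premalignant call (edgeR adjusted p 0.0182) was lost in 6 of the 19 alternatives that gave a value, with adjusted p up to 0.524, among them the fits without MCF10A or MCF10AT1 replicate 3, and the libraries of these lines overlapped. COL9A2, a second type IX chain, had 0.450, 0.679 and 0.693 CPM in MCF10AT1 (30, 45 and 43 counts), above the 0.0860 to 0.140 CPM of MCF10A and 0.0892 to 0.140 CPM of MCF10Ca1a. In TPM MCF10Ca1a replicate 1, at 0.169 from 5 counts, lay above MCF10AT1 replicate 1, at 0.145. COL9A1, the third chain, had at most 2 counts. COL22A1, a collagen of tissue junctions, had 0 counts in each MCF10A library, 11, 11 and 12 in those of MCF10AT1 and 6 in each of MCF10Ca1a, at least 3.85-fold and 3.79-fold higher against a floor of 3 counts per library. The MCF10Ca1a rise of COL22A1 was not called by limma on the log2 TPM scales (adjusted p up to 0.45), and MCF10Ca1a against MCF10AT1, not called by edgeR, was called lower for log2(TPM + 0.1) (adjusted p 0.0394).

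COL8A1, a short-chain network collagen of vessel walls and the cornea, was highest in MCF10AT1. It had 16.97, 13.7 and 11.55 TPM in MCF10A and 22.2, 21.3 and 21.1 in MCF10AT1, against 18.6, 20.8 and 17.4 in MCF10Ca1a. MCF10AT1 was highest and MCF10A lowest without overlap in TPM, while MCF10A and MCF10Ca1a overlapped in normalised counts. In normalised counts it rose by 0.84 at the premalignant step (SE 0.0999, edgeR adjusted p 1.1e-05) and fell by 0.63 at the malignant step (SE 0.101, adjusted p 8.91e-05), a fall that limma did not call on the log2 TPM scale. Against MCF10A its change in MCF10Ca1a was 0.21 (SE 0.102, edgeR adjusted p 0.0731), called higher in 10 of 20 alternatives, of which 1 left out MCF10A replicate 1. COL8A2, its partner, had 0 to 21 counts a library, and no comparison passed. Without MCF10A replicate 1 it was called higher in MCF10AT1 against MCF10A, at 1.40 (edgeR adjusted p 0.0472), and lower in MCF10Ca1a against MCF10AT1, as it was without a filter on low counts (adjusted p 0.0253 to 0.45 over the alternatives). COL28A1, a collagen of peripheral nerve, had 14, 20 and 17 counts in MCF10A and 5, 5 and 6 in MCF10AT1, against 87, 99 and 105 in MCF10Ca1a. It fell and then rose without overlap, and the rise was 5.04 on the log2 scale (SE 0.249, edgeR adjusted p 2.18e-11). The change before it, -1.62 (SE 0.312, edgeR adjusted p 0.000308) was not called on the log2(TPM + 1) scale.

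Genes that make, export, mature, bind and break down collagen were read as 5 lists chosen by function. Collagen chains are hydroxylated and folded in the endoplasmic reticulum, leave it in large carriers, lose their propeptides outside the cell and are cross-linked there. Of 16 genes for hydroxylation and folding, all tested, 3 rose and 10 fell in MCF10AT1 against MCF10A, 8 rose and 4 fell in MCF10Ca1a against MCF10AT1, and 8 rose and 7 fell in MCF10Ca1a against MCF10A, with median log2 changes of -0.505, 0.33 and 0.065. Here and in the lists that follow, the share of all genes called was 61.6%, 78.3% and 80.9% in the 3 comparisons, and nothing is read from a list's share near it. P4HA1, a catalytic subunit of prolyl 4-hydroxylase, rose most, from 44.4 ± 5.25 to 52.4 ± 5.14 and 232 ± 2.11 TPM (SD, n = 3), a log2 change of 2.28 in MCF10Ca1a against MCF10A (SE 0.0707, edgeR adjusted p 5.48e-14). P4HA3, another such subunit, had 131, 125 and 130 counts in MCF10A and 0 in all other libraries, at least 22.7-fold lower in MCF10Ca1a. P3H3 of the same list, named because it was also at 0 counts in MCF10Ca1a, was at least 20.9-fold lower. These are bounds only, so which of the genes fell more is not known. SERPINH1, the collagen chaperone HSP47, named after its values were seen, fell by 0.49 and then by 1.64 on the log2 scale at the successive steps (edgeR adjusted p 3.67e-05 and 2.43e-11).

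Of 5 export genes, which build or steer the carriers that take procollagen out of the endoplasmic reticulum, 4 fell and 0 rose at the premalignant step, and 5 rose at the malignant step. The gene not called at the premalignant step was PREB, at 0.09 (SE 0.0491, edgeR adjusted p 0.125). In MCF10Ca1a against MCF10A 4 rose and 0 fell, MIA2 was not called at 0.10 (SE 0.0542, edgeR adjusted p 0.11), and PREB rose most, by 0.71 on the log2 scale (SE 0.0495, edgeR adjusted p 1.2e-09). Median changes were -0.43, 0.62 and 0.39, against -0.00383, -0.0441 and -0.0465 over all genes.

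Of 14 genes of propeptide processing and cross-linking, 10 were tested. At the premalignant step 4 rose and 6 fell, at the malignant step 3 rose and 4 fell, and in MCF10Ca1a against MCF10A 3 rose and 6 fell. PCOLCE2, an enhancer of procollagen C-proteinase, rose by 2.04 (SE 0.0882, edgeR adjusted p 3e-12) in MCF10Ca1a against MCF10A. LOXL1, a lysyl oxidase-like cross-linking enzyme, had 155 to 175 counts in MCF10A and 322 to 417 in MCF10AT1, against 2, 1 and 0 in MCF10Ca1a, a count ratio of MCF10A to MCF10Ca1a of 86.9 (95% interval 29.6 to 423). PXDN, peroxidasin, which cross-links type IV collagen, named after its values were seen, rose by 0.31 and 1.47 at the successive steps (edgeR adjusted p 0.0148 and 8.5e-09).

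Of 11 collagen receptor genes, 7 were tested. Of these 0 rose and 4 fell at the premalignant step, 5 rose and 2 fell at the malignant step, and 3 rose and 4 fell in MCF10Ca1a against MCF10A. ITGA2, the alpha chain of the integrin that binds collagen in most epithelia, rose from 28.98 ± 4.54 and 28.5 ± 0.157 to 89.3 ± 2.26 TPM (SD, n = 3). ITGA10, another collagen-binding alpha chain, fell by 2.40 on the log2 scale (SE 0.111, edgeR adjusted p 6.68e-12) in MCF10Ca1a against MCF10A. Of 7 degradation genes, 6 were tested. Of these 0 rose and 3 fell at the premalignant step, 3 rose and 2 fell at the malignant step, and 2 rose and 3 fell in MCF10Ca1a against MCF10A. MMP9, a gelatinase, had 1090, 915 and 936 counts in MCF10A and 1, 1 and 0 in MCF10AT1, against 3, 3 and 4 in MCF10Ca1a, a ratio of MCF10A to MCF10Ca1a of 155 (95% interval 84.3 to 324). MMP13, a collagenase, was the largest rise at 1.73 (SE 0.365, edgeR adjusted p 0.000402), with 9 to 18 counts in MCF10A and 22 to 24 in MCF10Ca1a.

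**Figure D5:**
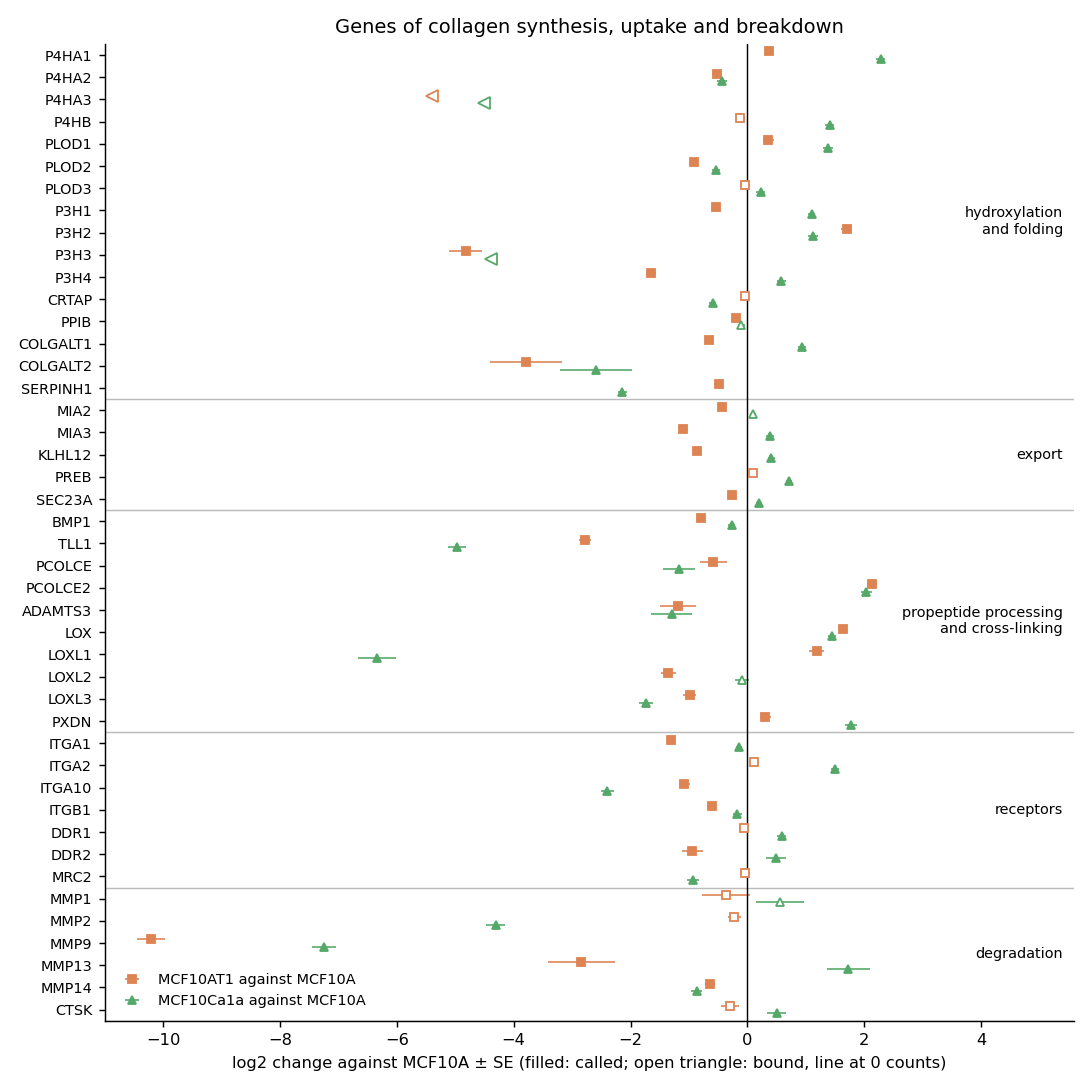
Log2 changes with standard errors of the genes tested from the 5 lists, in MCF10AT1 (squares) and MCF10Ca1a (triangles) against MCF10A. Filled points were called, and open sideways triangles are bounds for a line at 0 counts. P4HA1, PCOLCE2 and PXDN stand to the right and LOXL1, MMP9 and TLL1 far to the left in MCF10Ca1a.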

How the data were processed

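Polyadenylated RNA was sequenced with a stranded kit, per the labels. Per the submitters' processing notes, Salmon and hg38 were used. Versions and the annotation are not given in the sources used here. The deposited tables hold the authors' estimated counts and TPM per gene and per transcript, and length-scaled and scaled counts. Columns were matched to libraries by name.

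Estimated counts were rounded. Of 62666 genes, 17910 passed filterByExpr of edgeR with the lines as groups, a count minimum of 10 and a total of at least 15. The test was edgeR's robust quasi-likelihood test (edgeR 4.0.16, R 4.3.3) with TMM factors, all 9 libraries in 1 fit without a block, and Benjamini-Hochberg adjustment at 0.05. Class sums and chain ratios in TPM were tested by exact permutation over the lines. Normalised counts are CPM with TMM. TPM compares genes per length. Scripts were tested on simulated data. SDs are over 3 libraries. Libraries held 32930503 to 69508842 counts, and intervals (95%) cover counting error only.

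Members were found by symbol. The members and lists were chosen with earlier results of these data known. Members that passed the filter with 1 TPM or more in some line have values for every library, and other passing members have ranges. Of each list the called gene with the largest rise and fall by edgeR log2 change in MCF10Ca1a against MCF10A is named. Genes named otherwise are marked. Transcripts were matched to GENCODE 29 by identifier without version (37 of the 42 examined, those holding 15% or more of a gene in some line). Promoter windows are from RefSeq (GRCh38.p14). Protein sequences were not used here.

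Alternatives were DESeq2 (1.42.0) size factors and Wald test, genes with low counts kept, the deposited scaled and length-scaled counts, a block for replicate number, only the lines compared, thinning to the smallest library, limma (3.58.1) on log2(TPM + 1) and log2(TPM + 0.1), the former also without a filter (the pseudocount understates changes of low genes), and each library left out in turn. Sums without the 794-base COL12A1 model and type IV ratios without transcript models under 3000 bases were chosen after seeing the data.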

Additional observations from a re-analysis of the deposited data

How the results depend on the processing

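The members called over the alternatives numbered 17 to 23, 17 to 22 and 17 to 22 in the 3 comparisons, in the order premalignant step, malignant step and whole progression. Not every alternative tested 25 members: scaled counts tested 21, thinning 23, length-scaled counts 24, and fits of only the lines compared 24, 22 and 22. With each library left out in turn, the members called numbered 20 to 23, 19 to 22 and 19 to 22 of 25. The share of all genes called was 61.6%, 78.3% and 80.9% in the reported test and is not given for the alternatives. Of 1472 single-gene values under alternatives, 1379 kept direction and call, 46 lost the call, 30 gained it and 17 changed sign. Of 75 gene results, 49 held in every alternative that gave a value for the gene, and some alternatives gave none. The changes of sign were as follows. All 17 were uncalled either way, and the cause was not tested. In MCF10AT1 against MCF10A these were COL4A1 at 0.03 without MCF10A replicate 1 (-0.25 to 0.03 with each library left out) and COL8A2 at -0.02 without MCF10A replicate 3 (-0.02 to 1.40). In MCF10Ca1a against MCF10AT1 they were COL4A5 at -0.09 with length-scaled and -0.08 with scaled counts, and COL22A1 at 0.02 with DESeq2 size factors, 0.02 with the Wald test and 0.04 without MCF10AT1 replicate 3 (-0.08 to 0.04). In MCF10Ca1a against MCF10A they were COL5A2 at 0.05 for log2(TPM + 1) with and without a filter, 0.11 for log2(TPM + 0.1) and 0.02 without MCF10A or MCF10Ca1a replicate 1 (-0.14 to 0.02), COL8A2 at 0.02 without MCF10A replicate 1 (-1.45 to 0.02), and COL9A2 at -0.03 without a filter, -0.38 after thinning and -0.13 without MCF10A replicate 3 or MCF10Ca1a replicate 1 (-0.13 to 0.22). Leaving out 1 library, the log2 difference of MCF10Ca1a and MCF10A ran from -0.1523 to 0.1329 for basement membrane collagens, from -0.04766 to 0.1647 for fibrillar collagens and from -0.4761 to -0.4378 for COL4A1 to COL4A2, whose test then missed the threshold in 6 of 9 cases. Without the 794-base COL12A1 model, an alternative chosen after seeing the data, the same difference was 1.946 in place of 2.224 for the mixed class and 0.2071 in place of 0.3586 for all collagens. The median change of all genes, -0.00383, -0.0441 and -0.0465 in the reported test, was -0.113, 0.21 and 0.1019 for log2(TPM + 0.1). For log2(TPM + 1) it was -0.0699, 0.1285 and 0.0631. Same-numbered replicates correlated above 0.1 in 1 of 9 pairs, at 0.159 for replicate 3 of MCF10A and MCF10AT1. The labels do not say whether the numbers mark a batch, and 3 libraries a line are too few to decide it. With the replicate block 21, 20 and 21 of 25 members were called. Depth was lowest in MCF10Ca1a, where members at a few counts limit what can be seen.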
